A study of Mus musculus with 18 samples.

Results

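The right atria of mice labelled KO for Zfhx3 were compared with right atria labelled WT. The members are the 3 KO and the WT columns of the right atrium (RA) in the deposited gene count table. WT replicates 1 and 2 hold identical counts for every gene and were kept once, as WT replicate 1, so 5 distinct libraries entered the comparison, out of 17 distinct libraries from 18 samples in the series. Messenger RNA was sequenced from left atria (LA) and right atria of WT, Het and KO animals. Titles give each animal an ID, so the replicates are separate animals, but which of the 2 WT animals gave the duplicated column is unknown. The labels give no treatment. The strain, age, sex, allele, the deleted part of the gene and any promoter or Cre that drives the deletion were not stated in any source used here.

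Zfhx3 encodes a large transcription factor with many zinc fingers and several homeodomains, and its human counterpart lies at a long known atrial fibrillation locus. The right atrium holds working atrial muscle and, near the entry of the superior vena cava, the sinus node, whose cells set the heart rate and express T-box repressors such as Tbx3. Atrial muscle draws most of its ATP from the respiratory chain, whose subunits are encoded in part by the mitochondrial and mostly by the nuclear genome. Its excitability depends on sodium channels, and its relaxation on calcium pumps of the sarcoplasmic reticulum and the plasma membrane.

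The libraries matched the labelled tissue. Bmp10, a growth factor of the right atrium, ran from 7806 to 9492 CPM (counts scaled to a fixed library total) in the 8 RA libraries and from 0.833 to 5.02 in the LA libraries. The atrial light chain Myl7 stood at 2586 to 3221 in RA, and its ventricular counterpart Myl2 at 1.24 to 10.9. Library totals ran from 21771041 to 29552912 counts in the KO and WT right atria. Xist, transcribed from the inactive X, was at 799 CPM in KO replicate 1 and at 0.508 to 1.12 in the other KO and WT libraries. The Y-linked Ddx3y was at 0 in KO replicate 1 and at 111 to 161 in the others, so KO replicate 1 had a female and the other 4 a male pattern, while all 3 Het libraries had Xist at 684 to 741. An ID resembling 18S ribosomal RNA took 1.94 and 1.59% of the counts in WT and 1.48, 1.48 and 1.14% in KO. Its part in the results was not tested.

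Zfhx3 itself (chromosome 8, 107942644 to 108961630, plus strand) was not lower beyond the spread. It had 20.9 and 18.4 CPM in the WT pair. Het libraries held 19.5, 20.5 and 18.2 CPM, and KO libraries 18.7, 15.4 and 18.2, with TMM scaling as for all gene values from here on. KO replicate 1 lay above the lower WT library, so the groups overlapped. The log2 fold change was -0.17 (SE 0.11, edgeR adjusted p 0.50). The count covers the whole gene and the deleted part is not given, so this level does not check the labels, and every direction below is that of libraries labelled KO against libraries labelled WT.

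Of 17201 genes tested, 90 (0.523%) were called at an adjusted p under 0.05 by edgeR's quasi-likelihood test, 41 higher (0.238%) and 49 lower (0.285%) in KO. Rises were small, with a median log2 fold change of 0.54, and falls were somewhat larger, with a median of -0.76, against -0.003 over all tested genes. Only 21 of the 90 changed over 2-fold, 4 up and 17 down. In all 90 the KO libraries lay on one side of both WT libraries, which 37.2% of tested genes also did. Protein-coding genes made up 78 of the 90, and 25 of the 90 stood in at least 1 of the 56 gene lists used below. The count rests on few libraries. It fell to 10 (0.0584%) without KO replicate 1, to 9 without KO replicate 3 and to 0 without either WT library (with 1531 and 1429 genes at an unadjusted p under 0.05, against 2508 with all libraries), and it rose to 158 and 161 without Het replicate 1 or 3. Of the 90 genes, 8 were called without KO replicate 1 and 8 without KO replicate 3, so most calls named below are lost without either. With Xist as a covariate 23 of the 90 were called, and in KO and WT alone without KO replicate 1, where all libraries had the male pattern, 82 were. That fit, which also leaves out Het, called 276 of 16536 genes, and KO and WT alone with KO replicate 1 kept called 377.

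The largest rises are given where the mean over the KO and WT libraries was 5 CPM or more. Misp, 1 of the 4 genes that rose over 2-fold, was under this level and is named after its values were seen, with 1.57 and 1.27 CPM in WT and 3.16, 4.11 and 3.33 in KO (log2 1.31, edgeR adjusted p 0.033). Nrk, a serine/threonine kinase gene on the X chromosome (138914430 to 139010532), had 4.97 and 3.48 CPM in WT and 12.7, 9.87 and 9.80 in KO. Every KO library was well above both WT libraries, a log2 difference of 1.35 (SE 0.19, edgeR adjusted p 0.016). Adam19, a membrane-anchored metalloprotease that acts in heart valve development, lies on chromosome 11 (46055992 to 46147343). It went from 52.1 and 53.7 CPM in WT to 129, 101 and 114 in KO, and the groups did not come near each other. Its log2 difference was 1.11 (SE 0.16, edgeR adjusted p 0.033).

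Bcl6, a zinc finger repressor of transcription, had 9.24 and 8.60 CPM in WT and 16.98, 19.2 and 19.1 in KO. The 2 groups were each tight, and the change (log2 1.05) was among the smallest p-values of the comparison, with an edgeR adjusted p of 0.0055. Slc38a2 encodes a sodium-coupled transporter of neutral amino acids and stood at 151 and 172 CPM for WT. KO libraries reached 274, 266 and 254 CPM, with Het libraries at 201, 217 and 213. The Het libraries lay between the other groups with no overlap. The KO rise was 0.71 (SE 0.08, edgeR adjusted p 0.0060).

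The promoters of Bcl6 and Slc38a2, which rose, and of Cox7a1, a complex IV gene that fell together with others of the respiratory chain, are shown as the 250 bases before the RefSeq start on GRCm38.p6. Capitals mark TAATTA, the core that many homeodomains bind, in Slc38a2, and ATTGG, the reverse complement of the NF-Y core CCAAT, in Cox7a1. The Bcl6 window holds none of the motifs searched. The windows are chr16:23988853-23989102 (minus strand), chr15:96699729-96699978 (minus strand) and chr7:30183921-30184170 (plus strand), each written 5′ to 3′.
Bcl6: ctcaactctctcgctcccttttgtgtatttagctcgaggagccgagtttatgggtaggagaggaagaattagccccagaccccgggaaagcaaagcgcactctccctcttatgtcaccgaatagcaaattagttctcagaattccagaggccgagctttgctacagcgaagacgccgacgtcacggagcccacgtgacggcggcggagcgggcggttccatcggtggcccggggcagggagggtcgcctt
Slc38a2: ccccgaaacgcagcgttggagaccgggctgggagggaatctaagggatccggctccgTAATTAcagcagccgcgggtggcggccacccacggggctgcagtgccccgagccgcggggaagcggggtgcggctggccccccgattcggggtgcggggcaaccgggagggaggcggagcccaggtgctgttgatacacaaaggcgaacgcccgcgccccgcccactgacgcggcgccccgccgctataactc
Cox7a1: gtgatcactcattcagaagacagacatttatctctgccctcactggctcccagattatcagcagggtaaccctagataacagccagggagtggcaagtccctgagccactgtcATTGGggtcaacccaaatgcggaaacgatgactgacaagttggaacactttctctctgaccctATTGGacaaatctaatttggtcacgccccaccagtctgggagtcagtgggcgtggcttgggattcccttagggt
Such matches are descriptions of letters, searched on both strands. CCAAT was in 35.9% of the 11734 tested genes with a promoter in the table, in 28.1% of the 32 called higher and in 34.5% of the 29 called lower. TAATTA was in 2.42% of tested genes and in 1 promoter of each called group. NF-Y's own subunit gene Nfya and Creb1, whose site TGACGTCA was in 2.6% of tested promoters and in 2 of the 32 called higher, were themselves called higher in KO. Nfya rose by a log2 of 0.43 and Creb1 by 0.59 (edgeR adjusted p 0.043 and 0.019, both picked after their values were seen).

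Rapgef5, an exchange factor for Rap GTPases, rose from 69.7 and 66.2 CPM in WT to 107, 121 and 130 in KO (log2 0.81, SE 0.10, edgeR adjusted p 0.0084). Fam102b rose from 35.2 and 36.8 to 77.4, 64.6 and 63.2 (log2 0.93, edgeR adjusted p 0.0055). For both genes the lowest KO library was well above the highest WT library. Npy1r, the receptor of the sympathetic cotransmitter neuropeptide Y, went from 67.8 and 58.0 CPM to 123, 100.4 and 109 (log2 0.82, edgeR adjusted p 0.047). Atp2b4, a calcium pump of the plasma membrane, went from 166 and 130 to 258, 223 and 239 (log2 0.69, edgeR adjusted p 0.035). It was the 1 called gene among 33 of calcium handling. The endothelial junction gene Jcad (log2 0.71) and the tubulin-binding Tppp (log2 0.70) completed the 10 largest rises, with edgeR adjusted p of 0.030 and 0.016.

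Falls were led by sparsely counted transcripts. The mitochondrial subunit gene mt-Co2 had 10.3 and 9.55 CPM in WT and 2.75, 4.04 and 3.64 in KO (log2 -1.51), and mt-Co3 and the transfer RNA gene mt-Tc fell by 1.36 and 1.48. Mitochondrial genes are covered separately below. Arc, an activity-induced cytoskeletal gene, fell from 14.4 and 12.5 CPM to 6.13, 4.88 and 4.52 (log2 -1.38, SE 0.23, edgeR adjusted p 0.035). The highest KO library was well under the lower WT library.

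The ribosomal protein gene Rps29 fell from 59.9 and 49.7 CPM to 25.5, 32.4 and 22.2 (log2 -1.03, edgeR adjusted p 0.023), and Rpl35 fell too (log2 -0.82). These genes belong to families with near-identical copies, so their counts are uncertain where reads were split among copies. Rps29 and Rpl35 were the 2 called among 78 cytosolic ribosomal protein genes, whose median was -0.07 (-0.13 without KO replicate 2, and 0.0008 with offsets for GC content and length, so its sign is not stable). Cyb561, an electron-carrying membrane protein of secretory vesicles, fell from 12.9 and 15.05 CPM to 6.64, 7.69 and 7.42, with the groups clear of each other (log2 -0.94, edgeR adjusted p 0.016). Haghl fell by 0.84 on the log2 scale. Atcayos, an antisense gene whose reads cannot be told apart from those of its partner because the strand of counting is unknown, fell by 0.95.

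**Figure D1:**
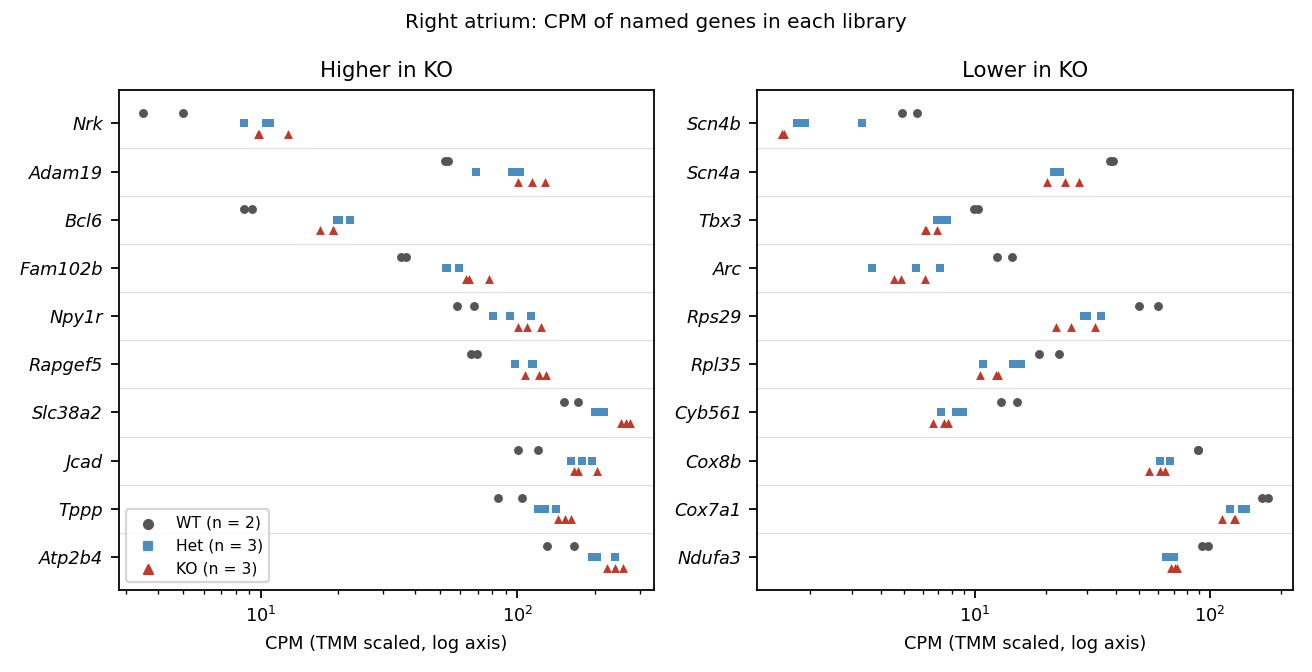
CPM of 10 genes higher and 10 lower in KO in each right atrial library (log axis, TMM scaled), with WT as circles (n = 2), Het as squares (n = 3) and KO as triangles (n = 3). KO and WT libraries do not overlap for any of the 20 genes, and the Het libraries lie on the KO side of WT throughout.

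Of 83 measured nuclear subunit genes of the respiratory chain and ATP synthase, 8 fell and 0 rose. The median over the list was -0.14, against -0.003 over all tested genes, and 53 of the 83 had every KO library below both WT libraries (18.2% of all tested genes did). With offsets for GC content and length the list median was -0.09. In complex I, which passes electrons from NADH to ubiquinone, 3 of 36 subunit genes fell. Ndufa3, an accessory subunit on chromosome 7 (3617373 to 3620327), had 97.8 and 92.7 CPM in WT and 68.3, 72.6 and 71.2 in KO. All KO libraries were below both WT libraries (log2 -0.43, edgeR adjusted p 0.029). Ndufa1 and Ndufb9, further accessory subunits, fell by 0.42 and 0.44 on the log2 scale.

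In complex IV, cytochrome c oxidase, 3 of 15 subunit genes fell and 13 had every KO library below WT (18.2% of all tested genes did). Cox8b, the muscle and brown fat form of subunit VIII (chromosome 7, 140898945 to 140900446), had 88.5 and 88.8 CPM in WT and 55.0, 64.0 and 61.5 in KO. The WT values were nearly equal and the KO values spread more widely below them (log2 -0.56, edgeR adjusted p 0.016). It also stands in the list of adipocyte markers, of which 3 of 10 passed the count filter. Cox7a1, the heart and muscle form of subunit VIIa, fell from 177 and 166 CPM to 127, 126 and 113 (log2 -0.49, edgeR adjusted p 0.033). Cox5b fell from 171 and 169 to 114, 135 and 124 (log2 -0.45, edgeR adjusted p 0.047).

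Complexes II and III had no called gene among 14. Of 18 ATP synthase genes, Atp5o, which encodes the stalk subunit that joins the catalytic head to the membrane part, fell from 76.0 and 69.6 CPM to 48.3, 51.2 and 42.2 (log2 -0.63, edgeR adjusted p 0.029). A second ID carries the same symbol, and the one with more counts was used. Atpif1, the inhibitor of ATP hydrolysis by the complex, fell by 0.60. Fatty acid oxidation, which supplies most of the heart's electrons, had no called gene among 27 (median -0.16). In 19 of the 27 every KO library was lower, as in 18.2% of all tested genes. These lists had 0 lower calls without KO replicate 1, KO replicate 3 or either WT library, and 13 lower calls for the respiratory list by DESeq2. In KO and WT alone, without Het or KO replicate 1, the respiratory list had 11 lower calls, in a fit that called 115 of 16536 genes lower. GC and length offsets left 6 in the respiratory list, and Xist as a covariate left 1. Short transcripts moved with this result: the median transcript was 1904 bases for genes called lower, 4884 for genes called higher, 3110 over all tested genes and 1046 for the respiratory list.

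**Figure D2:**
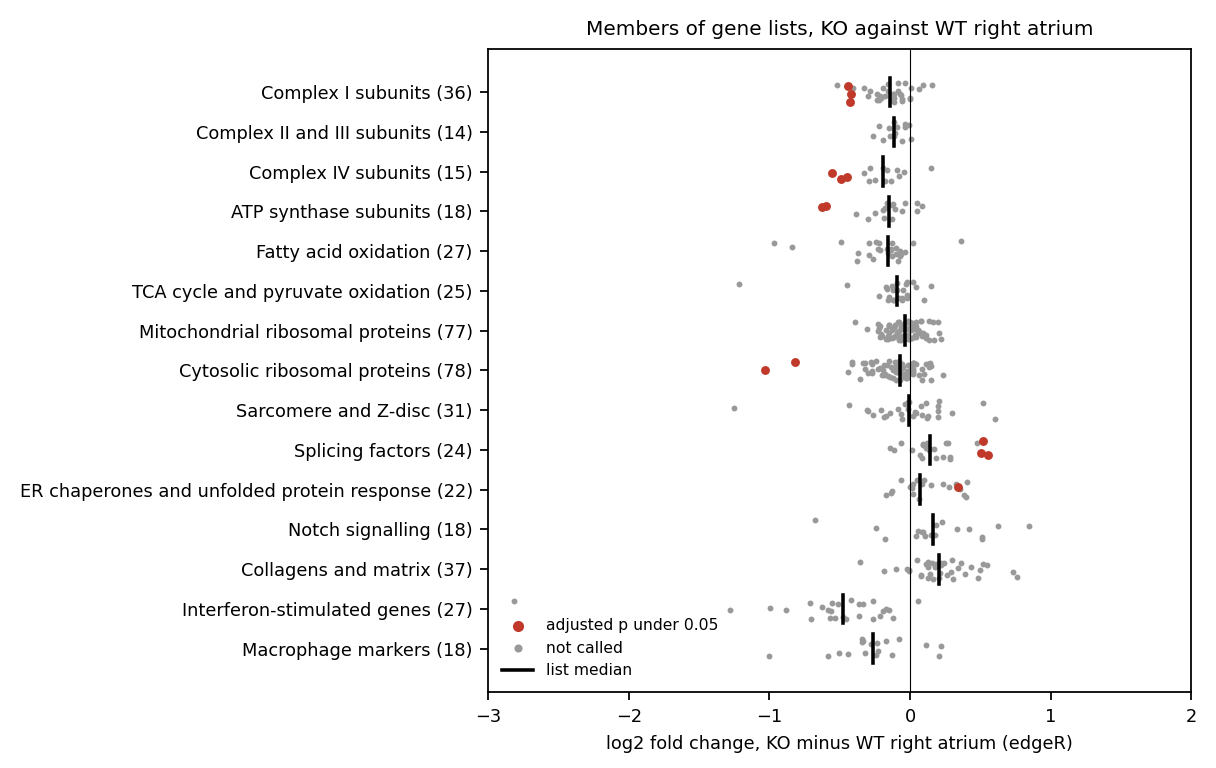
Each point is the log2 fold change, KO minus WT right atrium, of 1 member of a gene list (the number tested in brackets). Red points are called by edgeR at an adjusted p under 0.05, grey points are not, and black bars are list medians. The bars of the respiratory and interferon lists lie left of 0 and that of splicing factors lies right of it.

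For the mitochondrially encoded subunits, 4 of 13 were called lower: mt-Atp6, mt-Atp8, mt-Co2 and mt-Co3. All 4 had under 11 CPM in every library although mt-Co1, of the same genome, was far more abundant. The files counted mt-Atp6 at 7.93 and 8.32 CPM in WT and 1.92, 2.84 and 2.14 in KO (log2 -1.81, edgeR adjusted p 0.0055). mt-Co1, in contrast, stood at 59390 and 67320 CPM in WT and 56670, 59380 and 65810 in KO, and was not called (log2 -0.06, edgeR adjusted p 0.79). mt-Nd1, mt-Nd2, mt-Nd4, mt-Nd5, mt-Nd6 and mt-Cytb were likewise uncalled, at -0.12, -0.05, -0.15, -0.20, -0.37 and -0.17. Of these, mt-Nd6 had 8234 and 9285 CPM in WT and 7147, 5906 and 7231 in KO. All 13 subunit genes had a negative log2 difference, with a median of -0.37. In 7 of the 13 every KO library was below WT (18.2% of all tested genes did this). For mt-Atp6, mt-Co2 and mt-Co3 an annotated nuclear transcript matches 90% or more of the gene at 99% identity or higher, so a low count may hold only part of the gene's reads and these 3 falls are uncertain. The annotated copies of these 3 had negative log2 differences too and were not called, with -1.24 for Gm28661 (copy of mt-Co2), -0.87 for Gm28437 (mt-Co3) and -0.64 for Gm10925 (mt-Atp6). Gm13340, which matches mt-Co1 at 97.6% identity, was called lower (log2 -0.61, edgeR adjusted p 0.039). The closest transcript to mt-Atp8, Gm28925, matched 81.9% of the gene at 81.4% identity. The search covered annotated transcripts only and did not include mt-Tc. The low counts and falls of mt-Atp8 and mt-Tc are therefore uncertain as well. Without KO replicate 1 or 3, 1 of the 13 was called lower, and without either WT library 0. In KO and WT alone, without Het or KO replicate 1, 5 of the 13 were called lower, in a fit that called 115 of 16536 genes lower. Mitochondrial genes held 19.7 and 21.6% of WT counts and 19.4, 18.8 and 21.2% of KO counts.

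Genes of electrical activity changed at a few points. Scn4b, the beta 4 subunit of voltage-gated sodium channels (chromosome 9, 45138395 to 45154152), had 4.92 and 5.69 CPM for WT. Het libraries held 3.32, 1.75 and 1.89 CPM, and KO libraries 1.51, 1.51 and 1.54. The KO libraries were nearly equal and all below WT, and the Het libraries lay between (log2 -1.80, SE 0.26, edgeR adjusted p 0.016). Scn4a, the alpha subunit best known from skeletal muscle, went from 38.6 and 37.5 CPM to 24.2, 20.3 and 27.7 (log2 -0.66, edgeR adjusted p 0.032). They were the 2 called among 12 sodium channels, pacemaker channels and connexins, whose median was -0.25. The next members were not picked by the rule and did not pass the test. Hcn2, a pacemaker channel, had a log2 difference of -0.80 (edgeR adjusted p 0.060), and the gap junction gene Gja5 had 0.12 (0.83). No potassium channel gene was called among 23 and no sarcomere gene among 31.

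Tbx3, the T-box repressor of the sinus node and conduction tissue, was lower in KO. It had 10.4 and 9.92 CPM in WT and 6.91, 6.18 and 6.16 in KO, and the groups did not overlap (log2 -0.66, SE 0.13, edgeR adjusted p 0.046). It was the 1 called among 14 genes of left-right and sinus node identity, and its list companions Hcn4 and Shox2 were not (-0.32 and -0.27, with overlap). In bulk tissue, fewer node cells and less RNA per cell cannot be told apart. Phldb2, a microtubule-anchoring cortex protein at an atrial fibrillation locus, rose by 0.51 (edgeR adjusted p 0.016), and with Tbx3 it made up the called genes of 39 at such loci. The natriuretic peptide Nppa had 4073 and 4727 CPM in WT and 2370, 3215 and 2851 in KO, but its difference (-0.65) had an edgeR adjusted p of 0.098. Nppb was 0.68 higher, with an adjusted p of 0.20. Bcl6 was the 1 called of 29 cardiac transcription factors.

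Of 24 splicing factor genes 3 rose: Srsf10 (log2 0.51), Srsf3 (0.56) and Tra2a (0.52), which encode serine and arginine rich regulators of exon choice. Srsf3 had 117 and 134 CPM in WT and 196, 159 and 199 in KO. All KO values were above both WT values, as in 16 of the 24 genes (19% over all tested genes). With Xist as a covariate no splicing factor was called. In KO and WT alone, without Het or KO replicate 1, 3 splicing factors were called higher, in a fit that called 161 of 16536 genes higher. The list had 0 calls without KO replicate 1, KO replicate 3 or either WT library. Sfpq, another RNA-binding protein, rose from 84.0 and 90.8 CPM to 128, 130.3 and 135 (log2 0.58, edgeR adjusted p 0.0084, picked after its values were seen). The lists of ER chaperones and of matrix proteases had 1 called gene each, Dnajc3 (log2 0.34), a cochaperone of the ER lumen, and Adamts1 (log2 0.54), a secreted metalloprotease. No gene was called among 37 of collagens and matrix (median 0.21), 39 of TGF-beta and BMP signalling (0.12) or 18 of Notch signalling (0.16). The matrix median was 0.11 without KO replicate 1 and 0.13 without WT replicate 3, and the TGF-beta and BMP median was 0.06 with GC and length offsets.

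Interferon-stimulated genes, which respond to viral and inflammatory signals, had lower values in KO without passing the test. Of 27 measured, 0 were called by edgeR and 1 by DESeq2. The median was -0.48, with 26 of 27 below 0, and 13 had every KO library below WT (18.2% of all tested genes did). The mean log2 level of the list was 3.54 and 3.59 in WT and 3.32, 2.98 and 2.72 in KO, so the KO libraries spread more than the WT pair. Without KO replicate 1, which had the female pattern, the median was -0.65 with 0 called, and with Xist as a covariate it was -0.64 with 0 called. In KO and WT alone without KO replicate 1 the median was -0.65 and 8 were called lower, in a fit that called 115 of 16536 genes lower. The interferon median was 0.05 for KO against WT in the left atrium and 0.09 for Het against WT in the right. Whether these medians differ was not tested. The mean log2 level was 3.37, 3.98 and 3.21 in Het replicates 1, 2 and 3, so Het replicates 1 and 3 also lay below both WT libraries. Cxcl10, a chemokine induced by interferon (1.05 and 5.31 CPM in WT, 0.412, 0.667 and 0.245 in KO), shows how uneven the WT pair was for some members. No macrophage marker of 18 was called, and their summed level was 957 and 588 CPM in WT against 646, 712 and 575 in KO. Their median was -0.26 and turned to 0.16 without WT replicate 1, against -0.55 without WT replicate 3. Cardiomyocyte markers summed to 85250 and 90560 CPM in WT and 78900, 84530 and 79060 in KO, lower in every KO library. Fibroblast markers summed to 4869 and 4308 CPM in WT and 5244, 4921 and 4954 in KO, higher in every KO library. No member was called in either list of 16. The part of cell makeup in the called genes was not tested.

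**Figure D3:**
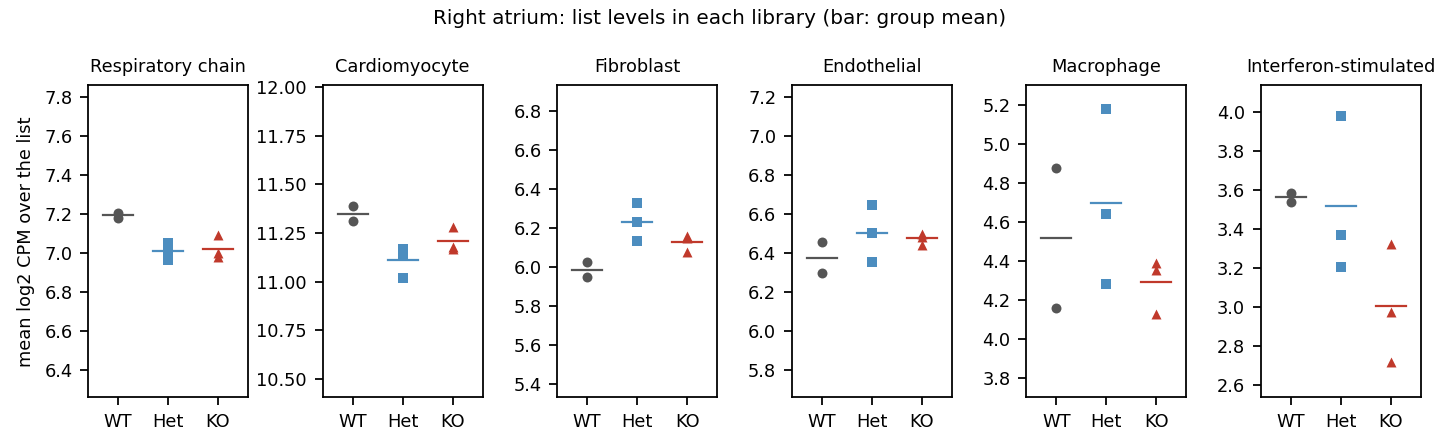
Mean log2 CPM over 6 lists in each right atrial library, with 1 point per library, a bar at each group mean and the same axis span of 1.6 in each panel. KO points lie below WT for the respiratory list (7.18 and 7.21 in WT against 6.98 to 7.09), the interferon list and cardiomyocyte markers. They lie above WT for fibroblast markers (6.03 and 5.94 in WT against 6.07 to 6.16) and overlap WT for endothelial and macrophage markers.

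The Het right atria share the WT libraries, so their values are given side by side only. All 90 genes called in KO lay on the same side of WT in Het, and 47 of them were called there too (0.57% of tested genes were called in Het). All Het libraries had the female and both WT libraries the male pattern, so genotype and sex cannot be told apart in this contrast. Its 98 calls over all genes became 2 with Xist as a covariate, 2 without WT replicate 1 and 0 without WT replicate 3 (1198 at an unadjusted p under 0.05). Without a Het library they were 31 to 47. All 3 genotypes share 1 fit, and leaving out KO replicates 1, 2 and 3 in turn gave 228, 40 and 3 calls for Het against WT. The median log2 was 0.46 in Het for the 41 that rose in KO and -0.62 for the 49 that fell, against 0.54 and -0.76 in KO. For Bcl6 the change was 1.22 in Het and 1.05 in KO, for Rapgef5 0.68 and 0.81, for Scn4b -1.20 and -1.80, and for Cox8b -0.44 and -0.56. Tested directly, KO against Het gave 0 called genes by edgeR (1077 at an unadjusted p under 0.05, 6.26% of those tested), 0 by limma-voom and 16 by DESeq2. Without KO replicate 1, edgeR called 15, but the remaining KO libraries had the male and all Het libraries the female pattern. Genotype and sex cannot be told apart in that fit. Of the 90, 17 had an unadjusted p under 0.05 between KO and Het. Pdlim3, a muscle Z-disc protein, was the gene with the smallest (5.6e-05). It had 64.8, 65.2 and 69.4 CPM in Het and 92.0, 89.7 and 85.4 in KO, against 56.6 and 64.1 in WT, so KO stood clear of both other groups. Like every gene between KO and Het, it was not called by edgeR. KO replicates 2 and 3 had the male pattern here and all Het libraries the female pattern.

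The left atria of the same animals were measured as well. Their KO-WT contrast shares no library with the right but rests on the same animals, so the contrasts are not independent. Of the 90 genes, 89 were tested there, all 89 had the same sign and 73 were called. These were 81.1% of the right atrial calls and 5.54% of the 1318 called in the left atrium among genes tested in both (3.50% of those higher and 4.46% lower). For 48 of the 89 the change was larger in the left atrium. Slc38a2 rose by 0.71 in the right and 0.80 in the left atrium, where it was not called (edgeR adjusted p 0.063). Bcl6 rose by 1.05 in the right and 0.85 in the left. Scn4b fell by 1.80 and 2.41 from very different levels, since WT left atria had 51.9 ± 12.4 CPM (SD, n = 3) and WT right atria 5.31 ± 0.542 (n = 2).

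Whether the KO effect differed between the atria depended on the fit. The difference, right minus left, was called for 0 of 18018 genes by edgeR, with 711 at an unadjusted p under 0.05 (3.95%), 0 by limma-voom and 1 by DESeq2. Libraries of the same animal deviate together, by 0.273 to 0.514 in correlation where the animal is known. The duplicated WT column had 0.194 and 0.159 with the left atria of WT animals 1 and 2. The fit with the animal as a block therefore stands beside the fit without one. It called 8 genes (0.0444%) with the duplicated WT column read as animal 1 and 98 (0.544%) as animal 2, and 5 in both. Among the 90, Tbx3 had the smallest unadjusted p (0.0054): it went from 6.52 ± 0.142 CPM in WT to 5.74 ± 0.409 in KO left atria (n = 3 each), against 10.1 ± 0.317 (n = 2) to 6.42 ± 0.429 (n = 3) in the right atria. The log2 effect was -0.18 in the left and -0.66 in the right, and the adjusted p of the interaction did not pass. Respiratory genes had a median of -0.34 in the left atrium, with 48 of 83 called lower, against -0.14 and 8 in the right. Among genes tested in both atria, 4.46% were called lower in the left, against 0.285% of all tested genes in the right. Whether the respiratory list differs between the atria was not tested.

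**Figure D4:**
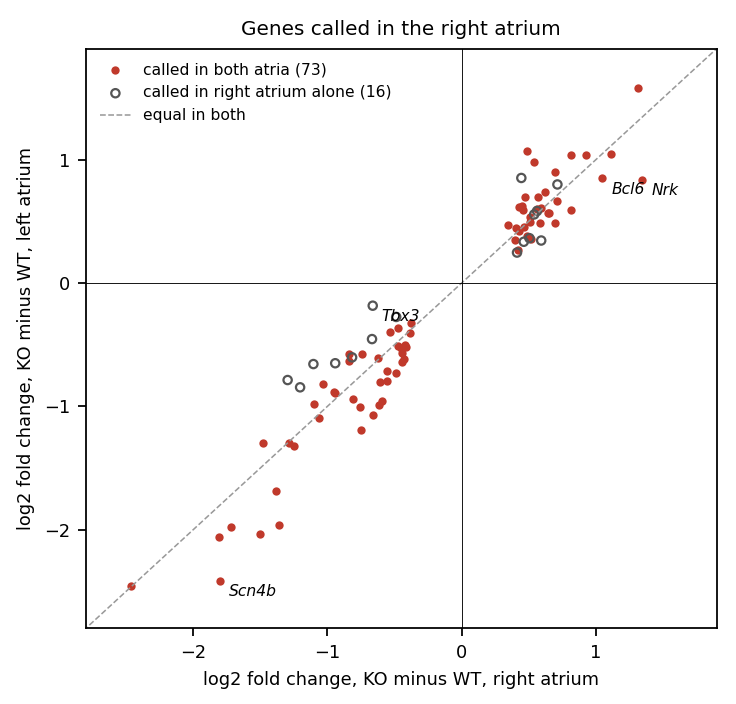
Log2 fold changes, KO minus WT, of the genes called in the right atrium that were also tested in the left, with the right atrium on the horizontal and the left on the vertical axis. Filled points (73) are called in both atria and open points (16) in the right alone, and all 89 lie in the quadrants of equal sign.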

How the data were processed

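The authors deposited whole-number gene counts, read here as raw counts. RNA was isolated with Direct-zol, made into KAPA mRNA HyperPrep libraries and run on a NovaSeq, per the labels' protocols. STAR 2.7.9a, DESeq2 1.30.1 and mm10 are listed in the submitters' processing notes. How reads were counted, with which strand and annotation release, is not given here. Symbols and coordinates are those of GENCODE M21 (GRCm38), found by base ID for 52073 of 56691 IDs. No column was left unused.

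All 8 distinct right atrial libraries entered 1 fit in edgeR 4.0.16 (R 4.3.3). Genes passed filterByExpr (minimum count 10), libraries were TMM scaled, and F tests of a robust quasi-likelihood model were adjusted by Benjamini-Hochberg, with under 0.05 as called. The atrium interaction used all 17 libraries. The test was first run on simulated data. Alternatives were DESeq2 1.42.0, limma-voom (limma 3.58.1), other scalings and filters, fewer or more libraries, a replicate block, an Xist covariate and each library left out. After seeing the data, KO and WT alone without KO replicate 1 and offsets for GC content and length were added. Nuclear copies of the mitochondrial protein genes were searched among annotated transcripts with blastn 2.17.0. Named genes are Zfhx3, the 10 largest rises and falls called with proper symbols, non-overlapping libraries and 5 CPM or more on average, and up to 3 called members per list. A gene that this rule picks is not reported here. The members and lists were chosen with earlier results of these data known.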

Additional observations from a re-analysis of the deposited data

Results flagged for a closer look

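The KO effect differed between the atria for 5 genes in both fits with the animal as a block (edgeR adjusted p under 0.05), as a log2 difference, right minus left, with the duplicated WT column read as animal 1. It was -0.73 for Smad7, an inhibitor of TGF-beta signalling, whose KO effect was 0.26 in the right and 0.92 in the left atrium. For Id3, an inhibitor of basic helix-loop-helix factors, it was -0.80 (-0.16 and 0.56). The actin gene Actb gave -0.65 (0.08 and 0.60) and the actin-binding Cap1 gave -0.58 (0.08 and 0.51). ENSMUSG00000118667.1, an ID without a symbol, gave -0.61 (-0.46 and 0.10). Without the block, none of these 5 passed, with an edgeR adjusted p of 0.99 for each. No outlier check was possible with groups of 2 or 3.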

How the results depend on the processing

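The 90 called genes of KO against WT became 387 by DESeq2, 55 by limma-voom, 850 with no filter on low counts, 377 with only the 2 genotypes, 27 with Xist as a covariate, 909 with the identical columns as 2 libraries, and 276 with KO and WT alone without KO replicate 1. Leaving out 1 library gave 0 to 161. DESeq2 called 86 of the 90 and limma-voom 53. Without scaling beyond library totals, 98 were called and 61.2% were higher, against 45.6% with TMM. RLE scaling gave 89, a minimum count of 50 gave 80, all libraries 118 and GC and length offsets 134.

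The atrium difference, with 0 genes called, had 1 by DESeq2, 140 with no filter, and 8 or 98 with the replicate block on the animal, for the identical library as animal 1 or 2. Leaving out 1 library gave 0 to 1. KO against Het, with 0, had 16 by DESeq2 and 210 with no filter, and 0 to 15 with 1 library left out. The 15 came without KO replicate 1, where KO and Het also differed in sex pattern throughout. In the right atrium, same-numbered libraries of different genotypes did not deviate together (correlations of -0.128 to 0.163). A replicate block on the number called 74 for KO against WT and 0 for KO against Het.

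For the 39 named called genes, 819 values from 21 alternatives gave 587 that kept the call, 232 that lost it and 0 reversals. Leaving out a WT library leaves 1, assumed to vary like the other groups. The cause of these shifts was not tested. The number of WT libraries, 2, limits the precision.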

Other observations

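Igkv1-110, an immunoglobulin kappa variable gene, was chosen after its values were seen. It had 32 and 15 counts in WT, 20, 31 and 10 in Het and 0 in all 3 KO right atria, at least 27.9-fold lower against a floor of 3 counts over the KO group. The metallothionein gene Mt2 had 1.09 and 1.18 CPM in WT and 0.0916, 0.316 and 0.175 in KO, with counts of 25 and 25 against 2, 9 and 5. Aox1, an aldehyde oxidase, fell from 59.8 and 61.2 CPM to 32.7, 40.0 and 35.8, with an edgeR adjusted p of 0.0098.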
